A study of Rattus norvegicus with 9 samples.

Results

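The 10 genes described here encode cell surface receptors through which peptides act on the dorsal root ganglion (DRG), the cluster of sensory neuron cell bodies beside the spinal cord. They comprise the neuropeptide Y receptors Npy1r and Npy2r, the galanin receptors Galr1 and Galr2, the cholecystokinin receptor Cckbr, the somatostatin receptor Sstr2, the bradykinin receptors Bdkrb1 and Bdkrb2, the calcitonin receptor-like receptor Calcrl and the neurotensin receptor Ntsr2. They were taken by gene symbol from the 20194 genes of the deposited gene table, and each symbol was present. Receptors of this kind are G protein-coupled. Those for neuropeptide Y, galanin (Galr1) and somatostatin mostly couple to Gi/o, which lowers cyclic AMP and dampens firing and transmitter release, whereas the bradykinin, cholecystokinin and Galr2 receptors couple mainly to Gq, which releases calcium from stores and raises excitability. Bradykinin formed in injured tissue is a classic activator of nociceptors, and nerve section is known to change both the peptides that DRG neurons make and the receptors they carry.

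RNA-Seq had been made from ipsilateral L4-6 DRG of male Sprague Dawley rats, given in the study's methods as 8 to 10 weeks old, in 3 groups of 3 libraries. Sham rats had surgery without the nerve lesion. SNI rats had spared nerve injury, in which the tibial and common peroneal branches of the sciatic nerve are tied and cut while the sural branch is left intact, so that injured and uninjured neurons share a ganglion. SNI + G15 rats had the same lesion and received G15, an antagonist of the G protein-coupled estrogen receptor GPER, through an intrathecal catheter placed on day 5, at 1.8 μg/μl in 1 μl of a DMSO solution for 24 h. The labels carry 1 protocol text for all 9 libraries, with catheters placed on SNI day 5, 2% lidocaine given through them to check their position, and drugs in 2% DMSO. They mark the sham and SNI libraries as controls for G15 but do not say for each group whether the catheter, the lidocaine and the solvent were given, so that the drug may not be told apart from these. The methods give 3 rats per group for sequencing and a supplement gives 6. The extraction protocol in the labels names macrophages in place of DRG, and the sham libraries are identified only by a heading of control in the gene table, since the other headings name SNI and SNI_G15. Pan-neuronal and nociceptor genes were present in all groups, with a summed level over 19 sensory neuron markers of 17750 to 18140 FPKM in sham libraries, against 15550 to 15960 FPKM after SNI and 15700 to 16590 FPKM with G15. FPKM is fragments per kilobase of transcript, scaled to a common number of mapped fragments. It is a level per length that can be set side by side between genes.

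The libraries held 18484557 to 18756736 estimated reads each. The chi-square of the counts per gene between libraries of 1 group, for which 1 is counting noise alone, was 2.56 to 4.60 except for pairs with SNI + G15 library 3, where it was 8.24 and 8.50. That library stood apart. Receptor calls that changed without it, and some other receptor differences, are given without it too. Other named genes and the marker lists were not examined without it. Tests used the estimated counts, edgeR's quasi-likelihood test between 2 groups at a time, and the 14305 genes whose FPKM reached 1 in any of the 9 libraries. A gene was called at a Benjamini-Hochberg adjusted p below 0.05. Of the 10 receptors 9 were tested. Bdkrb1 did not reach that level in any library, and Cckbr reached it in 6 of 6 SNI and SNI + G15 libraries but in 0 of 3 sham libraries, so that it was tested only because it was high after injury.

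In sham ganglia, Npy1r had the highest level of the 10 at 15.7 ± 0.616 FPKM (SD, n = 3). Galr2 followed at 9.32 ± 1.22 FPKM and Ntsr2 at 5.17 ± 0.731 FPKM. Bdkrb2 at 3.39 ± 0.290 FPKM and Npy2r at 3.13 ± 0.132 FPKM overlapped in their libraries. Below them came Calcrl at 2.43 ± 0.265, Galr1 at 1.46 ± 0.165, Sstr2 at 1.07 ± 0.119 and Cckbr at 0.237 ± 0.0513 FPKM, and these steps exceeded the spread between libraries. Bdkrb1 was last at 0.0200 ± 0.0200 FPKM.

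After SNI the order changed in its middle. Behind Npy1r and Galr2, Npy2r stood at 6.61 ± 0.261 FPKM, ahead of Bdkrb2 at 5.75 ± 0.316 and Cckbr at 5.33 ± 0.302 FPKM, whose libraries overlapped each other. Ntsr2 came next at 4.63 ± 0.172 FPKM. In SNI + G15 ganglia Galr2, at 16.5 ± 1.54 FPKM, was above Npy1r, at 13.4 ± 0.813 FPKM, with no overlap between their libraries. Galr1 and Sstr2 overlapped at the low end in both injured groups. These levels come from whole ganglia, where fewer cells of a type and less RNA per cell cannot be told apart.

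**Figure D1:**
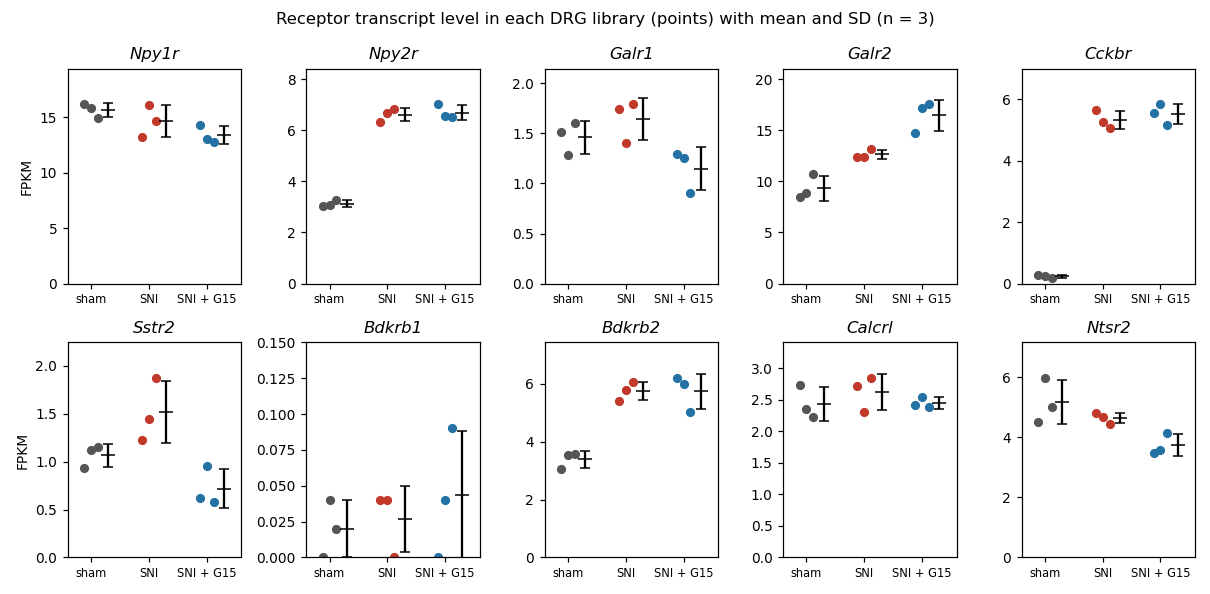
FPKM of each receptor in each of the 9 libraries, with 1 panel per gene, its own axis from 0, and the mean with SD beside the points of sham, SNI and SNI + G15. Cckbr lies between 0.18 and 0.28 FPKM in sham and between 5.07 and 5.84 FPKM in both injured groups, while Npy2r and Bdkrb2 rise by less and Sstr2 is lowest in SNI + G15.

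The promoters of Cckbr and Npy2r, the receptors with the largest rises after injury, and of Sstr2, with the largest difference after G15, are shown as the 250 bases before the gene start. They are from the RefSeq promoter table of build GRCr8, which may not be the build behind the deposited values, and read 5′ to 3′ on the strand of the gene. Capitals mark TGANTCA, the AP-1 motif of Jun and Fos family factors, and TGACGTCA, the cyclic AMP response element, where found on either strand.
Npy2r: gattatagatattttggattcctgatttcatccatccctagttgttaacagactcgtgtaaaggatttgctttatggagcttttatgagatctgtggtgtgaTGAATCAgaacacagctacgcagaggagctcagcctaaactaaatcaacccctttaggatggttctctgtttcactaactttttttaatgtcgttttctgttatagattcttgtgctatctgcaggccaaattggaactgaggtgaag
Cckbr: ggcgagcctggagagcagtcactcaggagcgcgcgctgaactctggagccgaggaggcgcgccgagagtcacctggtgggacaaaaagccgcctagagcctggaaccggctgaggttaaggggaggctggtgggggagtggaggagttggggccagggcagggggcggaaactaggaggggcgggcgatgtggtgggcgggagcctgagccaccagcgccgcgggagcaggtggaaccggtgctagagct
Sstr2: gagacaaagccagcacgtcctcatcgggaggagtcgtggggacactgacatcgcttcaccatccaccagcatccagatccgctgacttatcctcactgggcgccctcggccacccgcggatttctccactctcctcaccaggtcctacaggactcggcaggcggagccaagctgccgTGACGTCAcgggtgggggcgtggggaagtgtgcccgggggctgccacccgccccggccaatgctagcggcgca
The Npy2r bases lie at chr2:170203101-170203350 on the minus strand, those of Cckbr at chr1:169183328-169183577 and those of Sstr2 at chr10:99163103-99163352, both on the plus strand. The search covered 250 bases before to 50 bases after the start, for 9 of the 10 receptors, since Bdkrb2 had no entry. Which of the 3 Npy2r transcripts starts at the window shown was not examined. Npy2r held 1 TGANTCA match, 148 bases before the start, a motif found in 7.33% of the 33469 promoters of the table. Sstr2 held 1 TGACGTCA match, 73 bases before the start, found in 1.83% of all promoters. The Cckbr window held neither, and GC content was 40.0% for Npy2r, 66.7% for Cckbr and 68.7% for Sstr2. A further pattern, TTCNNNGAA, which STAT factors bind, was found in Calcrl and Ntsr2 and in 8.87% of all promoters. The Npy1r, Galr1, Galr2 and Bdkrb1 windows held none of the 3 patterns. A match describes the letters of the window and shows no binding.

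The first comparison asked which receptors differed between injured and sham ganglia. In SNI ganglia 4 of the 9 tested receptors were higher and 0 were lower, namely Cckbr, Npy2r, Bdkrb2 and Galr2. Across all 14305 genes tested 45.7% were called, 23.3% higher and 22.4% lower, so 4 of 9 is close to the background in number. A rise of at least 1 on the log2 scale was found for 2 of 9, Cckbr and Npy2r, and for 4.07% of all tested genes. Since Cckbr was tested only because it was high in injured libraries, the 2 of 9 cannot be weighed against that share. Cckbr exceeded all but 0.454% of tested genes in absolute change, Npy2r all but 4.46%, Bdkrb2 all but 9.12% and Galr2 all but 21.3%. The median log2 fold change over all genes was 0.0010.

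Cckbr, the receptor for cholecystokinin that predominates in the brain and that opposes opioid analgesia, was nearly undetected in sham DRG. Its estimated counts were 11, 10 and 7 in sham, 226, 210 and 202 in SNI and 221, 232 and 209 in SNI + G15 libraries. In FPKM it was at 0.28, 0.25 and 0.18 in sham, 5.66, 5.25 and 5.07 in SNI and 5.55, 5.84 and 5.18 in SNI + G15 libraries. Every injured library was far above every sham library, and the SNI and SNI + G15 libraries overlapped. The log2 fold change between SNI and sham was 4.46 (SE 0.163, 95% interval 4.10 to 4.82), or 22.0-fold (edgeR quasi-likelihood test, adjusted p = 7.919e-09), which ranked 51 from the top among the tested genes. With limma on log2(FPKM + 1), where the added 1 exceeds the sham level, the same difference was 2.36. The RefSeq table places a long non-coding RNA, LOC108349007, over the gene, and that RNA has no row of its own in the gene table.

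Npy2r, the receptor that sits mainly on central terminals and limits transmitter release, was at 3.03, 3.08 and 3.28 FPKM in sham and at 6.32, 6.67 and 6.83 FPKM in SNI libraries. No library of one group reached the other. SNI exceeded sham by a log2 fold change of 1.14 (SE 0.0685), or 2.20-fold (edgeR, adjusted p = 3.882e-07). Its partner Npy1r, found in many small peptidergic neurons, was at 16.17, 15.81 and 14.97 FPKM in sham and 13.24, 16.10 and 14.69 FPKM in SNI libraries, with overlap. The Npy1r difference of -0.11 was not called (edgeR, adjusted p = 0.193) and its 95% interval ran from -0.26 to 0.04.

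Expressed as a ratio within each library, Npy1r over Npy2r had a mean log2 value of 2.29 ± 0.115 in sham and 1.14 ± 0.108 in SNI libraries (SD, n = 3, FPKM with 0.1 added). The groups did not overlap, and the two-sided exact permutation p was 0.1, the smallest that 3 against 3 libraries allow. Non-overlap on its own was common, at 55.3% of single tested genes in this comparison on counts scaled for depth by TMM.

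Bdkrb2, the constitutive bradykinin receptor of nociceptors, was at 3.06, 3.53 and 3.59 FPKM in sham and 5.42, 5.77 and 6.05 FPKM in SNI libraries. The groups stood apart, with a log2 fold change of 0.74 (SE 0.0772), or 1.67-fold (edgeR, adjusted p = 2.307e-05). Bdkrb1, the receptor that inflammation induces in many tissues and that binds des-Arg kinins, had estimated counts of 0, 2 and 1 in sham, 1, 2 and 0 in SNI and 0, 1 and 5 in SNI + G15 libraries. A count of 0 allows up to 3 counts, and 8 of the 9 libraries were at or under that floor, so no fold is given. In a fit that kept every gene with a count it was not called (edgeR, adjusted p = 0.991 for SNI against sham, 0.671 for SNI + G15 against SNI and 0.628 for SNI + G15 against sham), and induction was not detectable at this depth. Bdkrb1 and Bdkrb2 are neighbours in the RefSeq table.

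Galr2, the galanin receptor linked to neurite growth and survival, was at 8.44, 8.82 and 10.71 FPKM in sham and 12.35, 12.40 and 13.12 FPKM in SNI libraries. SNI exceeded sham by a log2 fold change of 0.41 (SE 0.0898), or 1.33-fold, with no overlap (edgeR, adjusted p = 0.00379). Galr1, the inhibitory galanin receptor, was at 1.51, 1.28 and 1.60 FPKM in sham and 1.74, 1.40 and 1.79 FPKM in SNI libraries, which overlapped. Its difference of 0.14 was not called (adjusted p = 0.522), with a 95% interval from -0.23 to 0.51. Galr2, Npy1r and Calcrl had counts that were not whole in 9 of 9 libraries, so that part of their reads had been shared out between similar sequences and their values are less certain.

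Sstr2, a Gi/o-coupled receptor by which somatostatin quietens nociceptors, had estimated counts of 36, 44 and 45 in sham and 48, 57 and 73 in SNI libraries. Each SNI library was above each sham library, yet at these counts the log2 difference of 0.48 missed the threshold (SE 0.207, edgeR, adjusted p = 0.0829). It was called in 1 of 15 alternatives, without SNI library 1 (0.61, adjusted p = 0.0446), while without SNI library 3 it was 0.30 (adjusted p = 0.306). The levels were 0.93, 1.12 and 1.15 FPKM in sham and 1.23, 1.45 and 1.87 FPKM in SNI libraries.

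Calcrl, which forms the receptor for calcitonin gene-related peptide (CGRP) with Ramp1 and receptors for adrenomedullin with Ramp2 or Ramp3, was at 2.73, 2.35 and 2.22 FPKM in sham and 2.72, 2.30 and 2.84 FPKM in SNI libraries. The groups overlapped, and the log2 difference of 0.08 was not called (edgeR, adjusted p = 0.545, 95% interval -0.15 to 0.31). Ntsr2, the low-affinity neurotensin receptor, was at 4.52, 5.96 and 5.02 FPKM in sham and 4.79, 4.66 and 4.45 FPKM in SNI libraries. Its difference of -0.20 was not called either (adjusted p = 0.202, 95% interval -0.46 to 0.07).

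Cell type markers moved in the same comparison, where 23.3% of all tested genes were higher and 22.4% lower. Of the 19 sensory neuron markers 12 fell, 3 rose and 4 were not called, with a median log2 fold change of -0.37. All 7 nerve injury genes rose, with a median of 2.50, among them Atf3 at 5.13 (adjusted p = 3.969e-12). Of 10 macrophage markers 9 rose and 1 was not called, and their summed level went from 125.9 to 136.3 FPKM in sham to 289.2 to 307.5 FPKM in SNI libraries. Schwann cell markers fell in 6 of 8 genes and rose in 0 (median -0.76), with summed levels of 5415 to 5522 FPKM in sham and 3054 to 3112 FPKM in SNI libraries. Erythroid markers rose in 5 of 5 (median 1.75), from 96.8 to 100.5 FPKM to 324.1 to 331.4 FPKM in sum, and T cell markers rose in 4 of 7 and fell in 0 (median 0.82). The nerve injury gene Sprr1a, the erythroid marker Slc4a1 and the T cell markers Cd3e and Cd8a did not reach 1 FPKM in any sham library. They were tested only because they were high in injured libraries. The counts of these lists thus cannot be weighed against the shares over all tested genes. Of the 11 endothelial markers, a cell type in which Calcrl is known to be abundant, 2 rose, 1 fell and 8 were not called, with summed levels of 82.9 to 88.8 FPKM in sham and 87.5 to 89.0 FPKM in SNI libraries. The part of these cell types in the receptor changes was not tested.

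**Figure D2:**
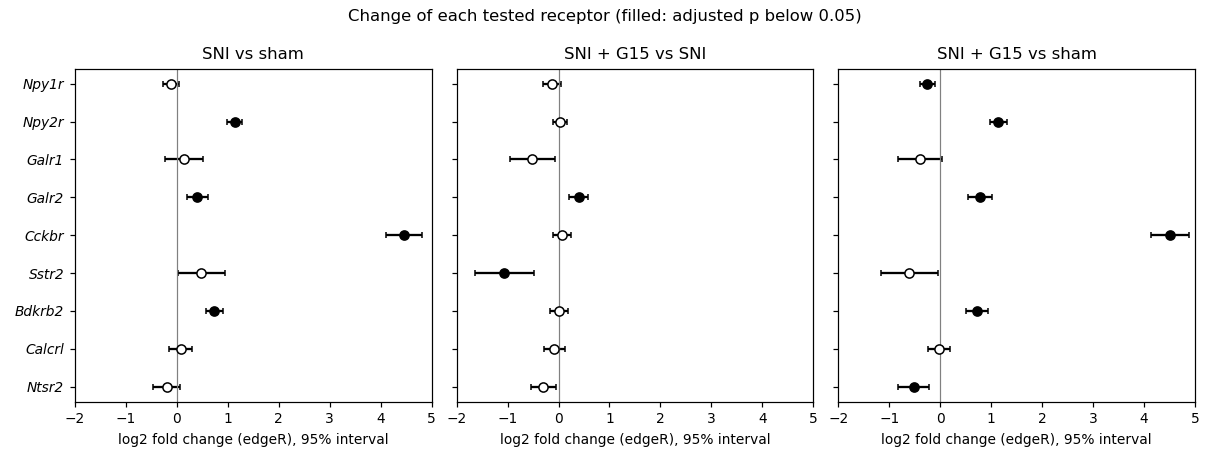
The log2 fold change of the 9 tested receptors from edgeR with its 95% interval, in 1 panel for each comparison, with filled points for adjusted p below 0.05. Cckbr, Npy2r, Bdkrb2 and Galr2 are right of 0 in both comparisons with sham, while Galr2 and Sstr2 carry the only filled points between SNI + G15 and SNI.

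The second comparison asked what differed when G15 was given after the injury. Between SNI + G15 and SNI ganglia 1 of 9 receptors, Galr2, was higher and 1, Sstr2, was lower, against 15.2% of all tested genes called, 7.98% higher and 7.25% lower. No receptor, 0 of 9, was higher by at least 1 on the log2 scale, as were 0.629% of all tested genes. Both calls were lost when single libraries were left out. Galr1 and Ntsr2 lay lower without overlap but were not called, and 38.9% of tested genes did not overlap. The median log2 fold change over all genes was 0.0063.

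Galr2 was at 12.35, 12.40 and 13.12 FPKM in SNI and at 14.69, 17.15 and 17.52 FPKM in SNI + G15 libraries. The groups did not overlap. With G15 it was higher by a log2 fold change of 0.40 (SE 0.0807), or 1.32-fold (edgeR, adjusted p = 0.0132). Its size was little changed without SNI library 1, at 0.38 (adjusted p = 0.0546), or without SNI library 2, at 0.38 (adjusted p = 0.0627), but the call was lost in both cases. Without SNI + G15 library 3, which stood apart, it was 0.34 and was called. Set against sham, Galr2 in SNI + G15 ganglia was higher by 0.78 on the log2 scale, or 1.72-fold (adjusted p = 0.000264).

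Sstr2 went the other way. Its estimated counts were 48, 57 and 73 in SNI and 24, 37 and 23 in SNI + G15 libraries, or 1.23, 1.45 and 1.87 against 0.62, 0.95 and 0.58 FPKM. No library overlapped between the groups. The log2 fold change was -1.07 (SE 0.257, 95% interval -1.65 to -0.49), which is 2.10-fold lower (edgeR, adjusted p = 0.0264), and 1.5% of tested genes had a larger absolute change. The call was lost without SNI library 2 (-1.10, adjusted p = 0.0738), SNI library 3 (-0.89, 0.103), SNI + G15 library 1 (-0.96, 0.0619) or SNI + G15 library 3 (-0.94, 0.0519), with the direction the same in each. With limma on log2(FPKM + 1), where the added 1 is near the level itself, the difference was -0.55 and was called (adjusted p = 0.0287). Against sham, where the counts were 36, 44 and 45, the difference of -0.61 was not called (adjusted p = 0.0727), and without SNI + G15 library 2 it was -0.86 and was called (adjusted p = 0.0284). Sstr2 lies over part of Slc39a11 in the RefSeq table, and the methods do not state whether the reads kept their strand. Slc39a11 itself was at 4.79 to 5.54 FPKM in SNI and 4.23 to 5.74 FPKM in SNI + G15 libraries and was not called (log2 difference -0.08, adjusted p = 0.570).

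Galr1 was at 1.74, 1.40 and 1.79 FPKM in SNI and 1.29, 1.25 and 0.90 FPKM in SNI + G15 libraries. Each SNI + G15 library was below each SNI library, by -0.51 on the log2 scale (SE 0.191, 95% interval -0.94 to -0.08), and this was not called (edgeR, adjusted p = 0.104). Without SNI + G15 library 3, which had the lowest value, the difference was -0.37, and with limma on log2(FPKM + 1) it was -0.30. The log2 ratio of Galr1 to Galr2 within a library was -2.59 ± 0.158 in sham, -2.88 ± 0.162 in SNI and -3.74 ± 0.368 in SNI + G15 libraries (SD, n = 3). The groups did not overlap in any of the 3 comparisons, which share libraries, and the exact permutation p of each was 0.1, again the smallest possible. Of single tested genes 55.3% did not overlap for SNI against sham, 38.9% for SNI + G15 against SNI and 53.9% for SNI + G15 against sham.

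Ntsr2 was at 4.79, 4.66 and 4.45 FPKM in SNI and 3.49, 3.57 and 4.15 FPKM in SNI + G15 libraries. The difference of -0.30 (SE 0.108) was not called (edgeR, adjusted p = 0.0953), although the groups did not overlap, and without SNI + G15 library 3 it was -0.38 and was called (adjusted p = 0.0489). Against sham the difference was -0.52 (SE 0.137), or 1.43-fold lower, and was called (adjusted p = 0.0116). That call was lost without sham library 2, which had the highest level at 5.96 FPKM, where the difference was -0.39 (adjusted p = 0.0503).

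Npy2r, Cckbr and Bdkrb2, which rose after injury, were not called between the injured groups. Npy2r was at 7.01, 6.55 and 6.51 FPKM in SNI + G15 libraries, which overlapped those of SNI, with a log2 difference of 0.03 and a 95% interval from -0.10 to 0.16 (edgeR, adjusted p = 0.773). The Cckbr difference was 0.07 (adjusted p = 0.588), with an interval from -0.11 to 0.24. Bdkrb2 was at 6.19, 5.98 and 5.04 FPKM in SNI + G15 libraries and its difference was 0.0034 (adjusted p = 0.981), with an interval from -0.18 to 0.18. These intervals leave room for changes of about the size seen in other genes, since the median absolute log2 fold change over all tested genes was 0.12.

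**Figure D3:**
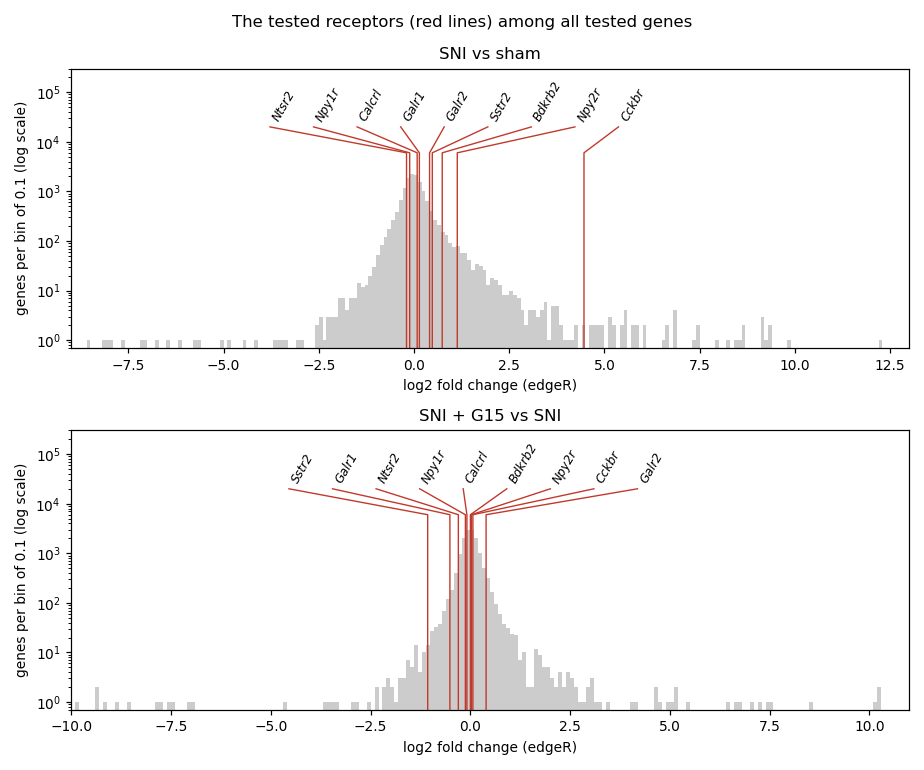
Histogram of the log2 fold changes of the 14305 tested genes in bins of 0.1, with the number of genes per bin on a log axis, for SNI against sham and SNI + G15 against SNI. Red lines mark the 9 tested receptors. Cckbr at 4.46 lies in the far right tail after SNI, and Sstr2 at -1.07 lies in the left tail after G15.

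Npy1r was at 14.30, 13.08 and 12.76 FPKM in SNI + G15 libraries, which overlapped SNI (log2 difference -0.12, edgeR, adjusted p = 0.297). It lay below every sham library, by -0.26 (SE 0.0664), which is 0.835 of the sham level (adjusted p = 0.0102). Calcrl was at 2.42, 2.55 and 2.38 FPKM in SNI + G15 libraries and overlapped both other groups, with a difference from SNI of -0.08 (adjusted p = 0.551, 95% interval -0.29 to 0.12).

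The third comparison, SNI + G15 against sham, shares its sham libraries with the first and its SNI + G15 libraries with the second. It had 4 receptors higher and 2 lower of 9 tested, against 43.2% of all genes called, 21.4% higher and 21.9% lower. At least 1 on the log2 scale was reached by 2 of 9, Cckbr and Npy2r, and by 4.51% of all tested genes on the higher side. Because of how Cckbr came to be tested, this count cannot be weighed against that share either. The 4 higher ones were Cckbr at 4.51 (22.7-fold, adjusted p = 3.983e-08), Npy2r at 1.14 (2.20-fold, adjusted p = 1.457e-06), Galr2 at 0.78 and Bdkrb2 at 0.72 (1.65-fold, adjusted p = 0.00019) on the log2 scale of edgeR. The lower ones were Ntsr2 and Npy1r. Galr1 at -0.39 (adjusted p = 0.125) was not called, and its groups met in FPKM, at 1.28 in the lowest sham and 1.29 in the highest SNI + G15 library. Without SNI + G15 library 3 it was -0.24. On counts scaled for depth by TMM, 53.9% of tested genes did not overlap. Calcrl differed from sham by -0.03 (adjusted p = 0.846).

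Marker lists also moved between SNI + G15 and SNI, where 7.98% of all tested genes were higher and 7.25% lower. Fibroblast markers were higher in 9 of 10 genes, with summed levels of 647.8 to 671.0 against 476.8 to 477.8 FPKM. Erythroid markers, which had risen with SNI, were lower in 5 of 5 (median -1.17), with summed levels of 192.7 to 227.2 against 324.1 to 331.4 FPKM. Schwann cell markers were higher in 5 of 8 and lower in 0, and T cell markers were higher in 2 of 7 and lower in 2 (median -0.76). The 2 lower T cell markers, Cd3e and Cd3d, reached 1 FPKM only in SNI libraries and were tested only because of these. Their number thus cannot be weighed against the share over all tested genes. Of the sensory neuron markers 6 of 19 fell, 1 rose and 12 were not called. The 7 nerve injury genes were not called. Their part in the Galr2 and Sstr2 differences was not tested.

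**Figure D4:**
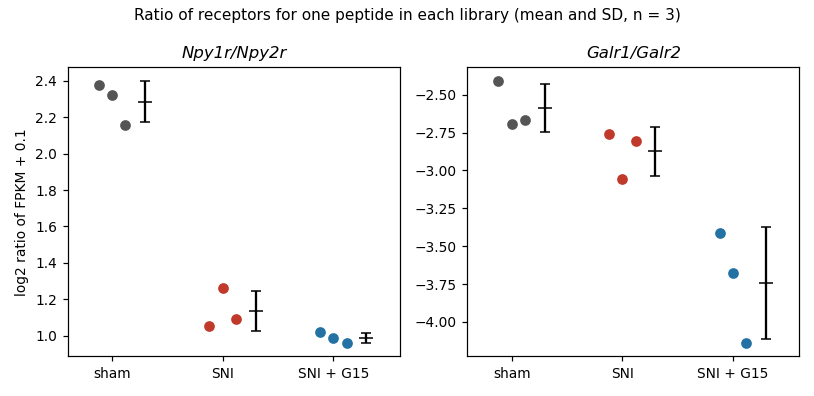
The log2 ratio of Npy1r to Npy2r and of Galr1 to Galr2 in each library, from FPKM with 0.1 added, with the mean and SD of 3 libraries per group. Npy1r/Npy2r goes from 2.29 in sham to 1.14 in SNI and 0.99 in SNI + G15, and Galr1/Galr2 from -2.59 to -2.88 and -3.74.

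The peptides that these receptors bind were also measured. After SNI, Npy went from 3.18 to 9.33 FPKM in sham to 692.1 to 725.9 FPKM in SNI libraries, a log2 fold change of 6.62 (edgeR, adjusted p = 3.277e-10). Gal, the galanin precursor, went from 8.26 to 10.4 FPKM to 247.3 to 274.2 FPKM, a change of 4.76 (adjusted p = 4.132e-11). The called receptors of these peptides had smaller changes, Npy2r at 1.14 and Galr2 at 0.41. Npy5r, another neuropeptide Y receptor and the neighbour of Npy1r in the RefSeq table, fell by 0.51 on the log2 scale (adjusted p = 0.0440). Npy was also higher in SNI + G15 than in SNI, by 0.21 (edgeR, adjusted p = 0.0273). Gal, at -0.20, was not called there (adjusted p = 0.0625).

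In the cholecystokinin pair the receptor had the larger value. Cck was at 1.66 to 2.37 FPKM in sham and 11.3 to 13.1 FPKM in SNI libraries, a log2 fold change of 2.47 (SE 0.160, adjusted p = 6.75e-07). The other receptor, Cckar, rose by 0.93 (adjusted p = 6.26e-05), from 3.05 to 3.56 FPKM to 6.32 to 7.14 FPKM. Cckar was thus above Cckbr in every sham library and every SNI library, but in SNI + G15 libraries, at 4.48 to 5.29 FPKM, it overlapped Cckbr at 5.18 to 5.84 FPKM. All 3 tested genes of this list rose after SNI, where 23.3% of all tested genes were higher. Since Cckbr was tested only because it was high in injured libraries, this count cannot be weighed against that share. In SNI + G15 against SNI 0 of 3 were called, beside 15.2% of all tested genes.

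Sst fell by 0.53 after SNI (adjusted p = 2.883e-05), from 138.3 to 156.6 FPKM to 100.9 to 109.4 FPKM, and was higher by 0.38 in SNI + G15 than in SNI (adjusted p = 0.0225), the comparison in which Sstr2 was lower. The remaining somatostatin receptors stayed under 1 FPKM in all libraries and were taken from the fit of all genes with a count. Sstr3 had 5 to 9 estimated counts in sham and 35 to 60 in SNI libraries, a log2 fold change of 2.80 (edgeR, adjusted p = 3.328e-05). Sstr4 had 3 to 5 and 26 to 32, a change of 2.78 (adjusted p = 4.75e-05). Sstr1 had 27 to 36 estimated counts in sham libraries, 11 to 23 after SNI and 8 to 10 with G15, not called after SNI (-0.80, adjusted p = 0.0504) and lower in SNI + G15 than in sham (-1.75, adjusted p = 0.000583). Between SNI + G15 and SNI none of these 3 was called (adjusted p = 0.128 for Sstr1, 0.892 for Sstr3 and 0.168 for Sstr4).

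In the kinin list 5 of 8 tested genes rose after SNI, 2 fell and 1 was not called. Across all tested genes 23.3% rose and 22.4% fell, so the share that fell is close to the background. The kininogens, from which bradykinin is cut, had at most 6 estimated counts in a sham library and, like Cckbr, were tested only because they were high in injured libraries. Kng1 had 3 to 6 estimated counts in sham and 24 to 37 in SNI libraries (log2 fold change 2.66, adjusted p = 0.000259). Kng2 had 0 to 5 in sham, with 2 of 3 libraries at 0, and 15 to 23 in SNI libraries (adjusted p = 0.00366), and no fold is given. Their counts were not whole in 7 of 9 libraries each, so that reads may have been shared between them. Another 4 genes of the list were named after their values were seen. Ace, which inactivates bradykinin, rose by 0.31 after SNI (adjusted p = 0.00938) and was higher again by 0.47 in SNI + G15 than in SNI (adjusted p = 0.0107). Mme, the peptidase neprilysin, fell by 0.30 after SNI (adjusted p = 0.0174) and was lower again, by -0.61, in SNI + G15 (adjusted p = 0.0105). Cpm, a carboxypeptidase that trims kinins, fell by 0.45 after SNI (adjusted p = 2.844e-05). Serping1, the inhibitor of the kinin-forming protease kallikrein, rose by 0.86 after SNI (adjusted p = 5.444e-07).

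Around Calcrl, the accessory proteins moved between SNI + G15 and SNI while the receptor was not called. Ramp1 was at 8.11 to 9.73 FPKM in SNI and 13.9 to 16.6 FPKM in SNI + G15 libraries, a log2 fold change of 0.75 (SE 0.103, edgeR, adjusted p = 0.00222). Ramp2 and Ramp3 were each higher by 0.34 (adjusted p = 0.0133 and 0.0158), after falls of 0.18 and 0.47 with SNI (adjusted p = 0.0137 and 0.000412). The ligand Calca, the CGRP precursor, was not called after SNI (0.01, adjusted p = 0.827) and was higher by 0.24 in SNI + G15 than in SNI (adjusted p = 0.0254), while Calcb at -0.0066 (adjusted p = 0.941) and Adm at 0.32 (adjusted p = 0.276) were not called. Endothelial markers, beside which these are to be read, summed to 104.7 to 113.7 FPKM in SNI + G15 against 87.5 to 89.0 FPKM in SNI libraries. Of the endothelial markers 4 of 11 were higher and 1 lower, and mural cell markers had 4 of 8 higher. Across all tested genes 7.98% were higher and 7.25% lower. The part of these cell types was not tested.

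The neurotensin genes were mixed. Nts rose by 1.06 on the log2 scale after SNI (adjusted p = 0.00509), from 1.25 to 1.81 FPKM to 2.77 to 3.61 FPKM, and was higher again by 0.99 in SNI + G15 libraries (adjusted p = 0.00429), at 5.86 to 6.32 FPKM. Ntsr1, the high-affinity receptor, fell by 0.68 after SNI (adjusted p = 8.019e-05). Sort1 and Sorl1, sorting receptors that also bind neurotensin, fell by 0.15 and 0.58 (adjusted p = 0.0362 and 1.972e-06). In SNI + G15 against sham, Nts was higher by 2.02 (adjusted p = 2.262e-05) and all 4 receptors, Ntsr2 included, were lower, beside 21.9% of all tested genes. The Ntsr2 call was lost when a single library was left out, as given above.

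**Figure D5:**
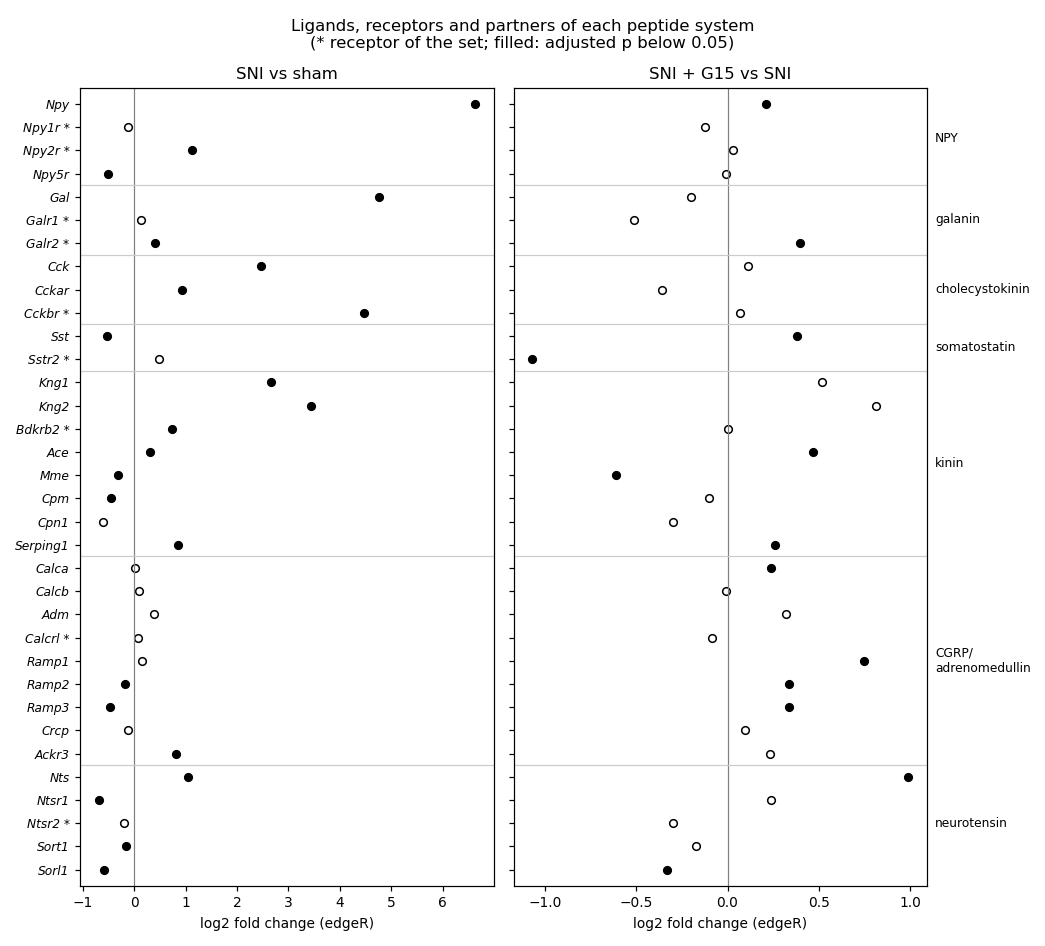
The log2 fold change from edgeR of each tested ligand, receptor, accessory protein and enzyme, grouped by peptide, for SNI against sham and SNI + G15 against SNI, on separate scales, with filled points for adjusted p below 0.05 and a star on the receptors described. Npy at 6.62 and Gal at 4.76 lie far beyond their receptors, whereas Cckbr at 4.46 lies beyond Cck at 2.47.

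Of the listed ligands and receptors that were too low to test, Pyy, Npy4r, Galp, Galr3, Gast, Cort, Sstr5, Adm2 and Calcr had at most 3 estimated counts in any library. Ppy, Npy6r and Kng2l1 have no row under those symbols in the gene table.

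Set beside 50 receptors for other peptides, of which 14 were tested, the picture after SNI was 5 higher, 3 lower and 6 not called, with a median log2 fold change of 0.07. The shares over all tested genes were 23.3% higher and 22.4% lower, so 3 of 14 lower is close to the background. The called ones with the smallest adjusted p were the prokineticin receptor Prokr2 at 0.59 (1.758e-05), the parathyroid hormone receptor Pth1r at -0.33 (0.0006), Prokr1 at 0.39 (0.0021) and the endothelin receptor Ednrb at 0.22 (0.00282). Between SNI + G15 and SNI only Pth1r was called, at -0.34 (adjusted p = 0.00942). Against sham the SNI + G15 libraries had 6 higher and 3 lower, beside 21.4% and 21.9% of all tested genes. Among the higher ones, Tacr1 reached 1 FPKM only in SNI + G15 libraries. It was tested only because it was high there, so the 6 cannot be weighed against that share. In SNI against sham, the largest value among the tested receptors that rose was that of Mchr1, at 0.79 (edgeR, adjusted p = 0.00311). The other 36 were under the FPKM filter, and in the fit of every gene with a count 4 of them were higher after SNI and 1 was lower, named after their values were seen. Of the 19823 genes in that fit 3449 were higher and 3300 lower, so neither count exceeds the background. Ghrhr had 0 to 3 estimated counts in sham and 14 to 17 in SNI libraries (adjusted p = 0.00114), and Npsr1 had 0 to 1 and 5 (adjusted p = 0.0222). Mc1r had 1 to 10 and 19 to 26 (log2 fold change 2.07, adjusted p = 0.00619), and Prlhr had 2 to 8 and 10 to 16 (1.42, adjusted p = 0.0392). Glp1r had 7 to 11 and 1 to 5 (-1.54, adjusted p = 0.0439).

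Downstream of the receptors, 6 of 29 tested G protein, effector and desensitization genes rose after SNI and 13 fell, beside 23.3% and 22.4% of all tested genes. Arrb1, the arrestin that ends receptor signalling, had the smallest adjusted p and rose by 0.75 (5.075e-08). The regulators Rgs3 and Rgs8, which shorten G protein signals, fell by 0.34 and 0.72 (adjusted p = 9.707e-06 and 5.279e-05), and the adenylyl cyclase Adcy2 rose by 0.45 (adjusted p = 7.752e-05). Between SNI + G15 and SNI 4 were lower and 0 higher, beside 7.25% and 7.98% of all tested genes. The 4 were Gnai1 at -0.24, Prkce at -0.24, Gna14 at -0.19 and Gnaz at -0.17 (edgeR, adjusted p = 0.0193, 0.0198, 0.0266 and 0.0370). Of the 10 genes for peptide processing and storage 1 rose and 6 fell after SNI, with Chga at -0.64 (adjusted p = 2.311e-06) and the convertase Pcsk1 at 0.56 (adjusted p = 3.688e-06). In the same comparison 12 of the 19 neuron markers fell and 3 rose, as given above, and their part was not tested.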

How the data were processed

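The 9 DRG libraries, 3 for each of sham, SNI and SNI + G15, had been sequenced as paired reads of 150 bp. The authors deposited FPKM per gene and per transcript, normalized for depth and length, a gene's value being the sum over its transcripts. They also deposited estimated counts per gene, not normalized, of which 70.9% to 72.0% were whole in a library. The aligner and annotation are not given in the sources used here, and the submitters' processing notes name mouse genome builds although the gene identifiers are of rat. The deposited library correlations, principal components and plot values were not used.

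After rounding, the estimated counts were scaled by TMM and fitted with the quasi-likelihood method of edgeR 4.0.16 (R 4.3.3), using the 6 libraries of each comparison and the genes whose FPKM reached 1 in any library. The study's methods name DESeq2, used here as an alternative. Alternatives were other normalizations and filters, DESeq2 1.42.0, limma 3.58.1 on log2 of FPKM plus 1 or 0.1, a joint fit of the 9 libraries, the replicate number as a block, and leaving out each library. Genes under the filter come from a second fit with every gene that had a count. On simulated counts for 14305 genes, of which 200 were changed by 1 on the log2 scale, 99.5% were recovered for SNI against sham, 100% for SNI + G15 against SNI and 97.5% for SNI + G15 against sham, with 10, 12 and 11 false calls. The simulation changed only genes above a minimum mean count and gave every gene the same relative spread beyond counting noise. It had no library that stood apart, so these rates need not hold for the data.

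The receptors and gene lists were chosen with earlier results of these data known. Named genes are the 10 receptors, their ligands, accessory proteins and sister receptors, and up to 4 called genes per further list by adjusted p. For the ratios Bdkrb1 to Bdkrb2 was left out because Bdkrb1 was at the floor of 3 counts. Same-numbered libraries of different groups did not deviate together (correlations of -0.125 to 0.0923), so numbers were not taken as pairs. Whether each library is 1 rat is not settled by the sources, in which the titles of the SNI + G15 libraries all carry SNI1. The p-values measure the spread between these libraries. Intervals and floors cover the error the libraries show and, for floors, counting error only.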

Additional observations from a re-analysis of the deposited data

How the results depend on the processing

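The 4 receptors called higher after SNI, and the same 4 higher in SNI + G15 than in sham, were called under all 15 alternatives each. Between SNI + G15 and SNI the number of genes called was 2179, and 1292 with a replicate block, which left the number of receptors called at 4, 2 and 6 in the 3 comparisons. Leaving out single libraries gave 893 to 2333 genes and 0 to 2 receptors. The causes of other shifts were not tested. The Bdkrb2 difference between SNI + G15 and SNI changed sign to -0.0084 with library totals, to -0.0052 and -0.0066 with limma on log2(FPKM + 1) and log2(FPKM + 0.1), and ranged from -0.050 to 0.080 with libraries left out. That of Npy2r ranged from -0.0011 to 0.055. Calcrl between SNI + G15 and sham turned to 0.015 with library totals and to 0.0095 and 0.014 with limma, and ranged from -0.083 to 0.061. All of these lie near 0 and were not called under any alternative. The ratios kept their direction under each alternative.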

Other observations

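The genes whose pattern over the 9 libraries was most like that of each receptor were found by the root mean square difference of log2 CPM, each gene centred on its sham mean. For Cckbr these were Igsf23 (0.188), the urocortin gene Ucn (0.245) and the cytokine gene Il24 (0.259), where the median over all tested genes was 3.48. For Npy2r they were Cbln2 (0.0647), Man1a1 (0.0658) and Ptprt (0.0737), against a median of 0.941. For Sstr2 they were Colq (0.161), Oacyl (0.178) and Pcdhga4 (0.208), against 0.535. For Bdkrb2 they were Tgif1 (0.0606), Prr18 (0.0709) and Ugdh (0.0711), and for Galr2 Acp6 (0.0891), Ninj1 (0.0910) and Gmfg (0.0921). Npy1r, which changed little, had 527 genes within 0.1 and Galr1 had 0.

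The share of each transcript varied widely within groups. The first of the 2 Bdkrb2 transcripts held 55.6% to 79.1% of the gene in sham, 69.0% to 100% after SNI and 61.8% to 82.3% with G15, which overlap. The curated Npy2r transcript held at most 5.47% in sham libraries and 0% in the others, and a predicted one held 35.0% to 100% in sham and 79.3% to 100% in SNI libraries.

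The plasma kallikrein gene Klkb1, which cuts kininogen, had 0 estimated counts in 3 of 3 sham libraries, 20 to 31 after SNI and 9 to 25 with G15, and was called in SNI against sham in the fit of all genes with a count (edgeR, adjusted p = 3.598e-05). It was named after its values were seen.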
